A study of Mus musculus with 77 samples.

Results

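The genes described here are 5 classical targets of the glucocorticoid receptor: Fkbp5, Tsc22d3, Sgk1, Klf9 and Klf15. They were chosen by symbol, as 5 of the 18104 genes listed in at least 1 of the 6 count tables of the series. All 5 were listed in the injury series of the Dhh pull-down and of the Isl1 input. Fkbp5 was not analysed in the 3 naive tables and Klf15 was not analysed in the injury series of the Isl1 pull-down, which leaves 4 members in each of these.

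Glucocorticoids are adrenal steroids that follow a daily rhythm and are released under stress. They bind the glucocorticoid receptor, encoded by Nr3c1, which is held ready by HSP90 and its co-chaperones, moves into the nucleus and acts there on target genes, often through a palindrome of a short hexamer. The 5 members are used as readouts of that receptor in many tissues, and each can also answer to other signals.

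The libraries came from mouse dorsal root ganglia (DRG) of the RiboTag system, where Cre recombination makes cells carry an HA epitope on Rpl22, a protein of the large ribosomal subunit, and HA antibodies then pull down the ribosome-bound RNAs of those cells. Dhh-Cre (ICR; Schwann and satellite cells), Runx3-Cre (ICR; proprioceptive neurons), Isl1-Cre (ICR; sensory neurons), Adv-Cre (C57BL/6; sensory neurons) and PGK-Cre (C57BL/6; all cells) mice gave, when naive, an HA pull-down (IP), the lysate left after it (supernatant) and the lysate before it (input). The injury series held the Dhh IP, the Isl1 IP and the Isl1 input of lumbar ganglia 4, 12 and 24 h after sciatic nerve injury and of naive ganglia. By the methods the mice were males of 8 to 12 weeks, heterozygous for Cre and homozygous for the tagged Rpl22 allele, except that Adv mice were heterozygous for both. Groups held 3 libraries, except 2 in the naive Dhh IP, in the Dhh IP at 24 h and in the Isl1 input at 4, 12 and 24 h. The labels name neither a sham operation nor an hour of collection for any group, so that injury, surgery and the time of day cannot be told apart. Nothing in the labels ties a replicate to an animal of its own, and p-values measure the spread between these libraries, which may be technical. A Cre line marks what its driver marked at any time before, so each pull-down is a set of cells by history and not a pure cell type, and the naive Dhh IP library labelled replicate 2 was not analysed here.

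A library held between 29710143 and 54088821 counts, so the spread between libraries rather than counting limits these genes. In naive ganglia the 12 markers of myelinating Schwann cells summed to 47145 and 48505 CPM in the Dhh IP (counts scaled to a library total of 1000000), against 890 to 1055 CPM in the Isl1 IP. The 18 sensory neuron markers summed to 1494 and 2219 CPM in the Dhh IP, against 40427 to 44102 CPM in the Isl1 IP. The Dhh libraries of the injury series carry a sensory neuron label, but the same neuronal markers summed to only 1350 to 1730 CPM in them and the Schwann cell markers to 25742 to 36615 CPM, and they are called by their line here. Replicate 3 of their naive group, and replicate 3 at 24 h, stood low in the members, and results that rest on them are given with and without them.

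The promoters of the members are shown first, since a receptor motif is what target genes are commonly searched for. In RefSeq windows (GRCm38.p6) from 250 bases before to 50 bases after each start site, both strands were searched for AGAACA and for the palindrome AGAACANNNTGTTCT, which contains the hexamer on each strand. The hexamer was in 19.0% of all 32851 windows and the palindrome in 3 of them, which is 0.00913%. Those 3 belong to Sgk1, Acnat2 and Gm35041. Of the 12 windows of the 5 members, 4 held the hexamer and 1 the palindrome. The Sgk1 palindrome lies 189 bases before 1 of the 6 annotated Sgk1 starts, at chr10:21993694-21993723 on the + strand, with the palindrome in capitals.

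Sgk1: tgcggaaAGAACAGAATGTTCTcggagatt

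The lone hexamer of Tsc22d3 lies 185 bases before 1 of its 3 starts, at chrX:140600690-140600719 on the − strand, and is shown to compare it with the palindrome. Its capitals mark the hexamer, which here reads on the other strand.

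Tsc22d3: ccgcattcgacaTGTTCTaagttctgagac

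The single windows of Klf15, Fkbp5 and Klf9 held no match, which says only that these letters are not in those windows. Among 26 other genes known to be induced by glucocorticoids, 1 of 28 windows, from 21 genes, held the hexamer and 0 the palindrome. In the mm10 annotation of GENCODE the members lie on chromosomes 6 (Klf15), 10 (Sgk1), 17 (Fkbp5), 19 (Klf9) and X (Tsc22d3).

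In naive ganglia all 4 members measured were higher in the glial pull-down than in the pull-down of sensory neurons, by log2 changes between 1.70 and 5.68, in the table of naive fractions. So was the receptor gene itself. In the naive groups of the injury series, whose tables were scaled separately, the mean level of Tsc22d3 was the other way, at 165 CPM in the Dhh IP and 213 CPM in the Isl1 IP, while Sgk1 (69.3 and 18.8 CPM) and Klf9 (184 and 53.7 CPM) were again higher in the Dhh IP. The question was in which cells of the ganglion the ribosome-bound RNAs of these genes lie. Since 84.8% of the 10521 genes tested differed between these pull-downs, and 41.3% were higher in the Dhh IP, the count of 4 of 4 is no mark of the group. The sizes were above the middle of the genes, with a median log2 change of 3.05 over the members and -0.05 over all genes. The Dhh IP also held more of the markers of some other cells. The 8 fibroblast markers summed to 711 and 1027.5 CPM in it, against 46.7 to 49.8 CPM in the Isl1 IP. The 7 mural cell markers summed to 145 and 188 CPM, against 27.1 to 76.3 CPM. Macrophage markers overlapped (9.22 and 9.86 CPM, against 8.56 to 25.3 CPM). The part of these cells in the members' changes was not tested. In bulk pull-downs, fewer cells of a type and less RNA per cell cannot be told apart.

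Klf15, a Krüppel-like zinc finger factor that controls amino acid and lipid use in muscle and liver, was the most unequal member. It stood at 133 and 146 CPM in the Dhh IP, against 2.10, 2.96 and 3.46 CPM in the Isl1 IP. Every Dhh library lay far above every library of the other lines, and the change was 5.68 ± 0.42 on the log2 scale (± SE; edgeR quasi-likelihood test, adjusted p = 1.03e-07). Klf15 averaged 10.8 ± 1.46 CPM in the Runx3 IP, 7.54 ± 1.46 in the PGK IP and 3.84 ± 2.33 in the Adv IP (SD, n = 3 each). The order of lines was thus Dhh, Runx3, PGK, Adv and Isl1, in which Adv overlapped both PGK and Isl1 while Runx3 and PGK did not overlap.

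Sgk1, a kinase that raises sodium channels and transporters at the cell surface, showed the same split at smaller size. It stood at 182 and 197 CPM in the Dhh IP, against 13.0, 17.2 and 18.2 CPM in the Isl1 IP. No library overlapped, and the change was 3.61 ± 0.19 (edgeR adjusted p = 7.74e-09). Across the neuronal lines and PGK, Sgk1 lay between 11.2 and 25.7 CPM, with Runx3 first and then PGK, Isl1 and Adv, and every neighbour in that order overlapped. Klf9, a Krüppel-like factor that answers to glucocorticoids and thyroid hormone, stood at 133 and 192 CPM in the Dhh IP, against 14.2, 42.4 and 34.5 CPM in the Isl1 IP. Its Dhh libraries were above all others, but the spread inside the neuronal groups was wide, and the change was 2.49 ± 0.76 (edgeR adjusted p = 0.00962).

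Tsc22d3, whose leucine zipper protein GILZ holds back inflammatory transcription factors, was abundant everywhere. It stood at 1077 and 921 CPM in the Dhh IP, against 385, 277 and 295 CPM in the Isl1 IP. The groups did not overlap, and the change was 1.70 ± 0.35 (edgeR adjusted p = 0.000675), smaller than for the other members. In the naive groups of the injury series Tsc22d3 stood at 232, 197 and 67.7 CPM in the Dhh IP, against 206, 220 and 215 CPM in the Isl1 IP, so that the order of the means was reversed there and the libraries overlapped. Per length of transcript Tsc22d3 was also the highest of the 4 in the Dhh IP, at a mean level of 506 FPKM (CPM divided by the transcript length in kilobases), followed by Sgk1 at 77.1, Klf15 at 58.8 and Klf9 at 36.2 FPKM. In the Isl1 IP the FPKM levels were 162 for Tsc22d3, 6.77 for Klf9, 6.58 for Sgk1 and 1.20 for Klf15.

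**Figure D1:**
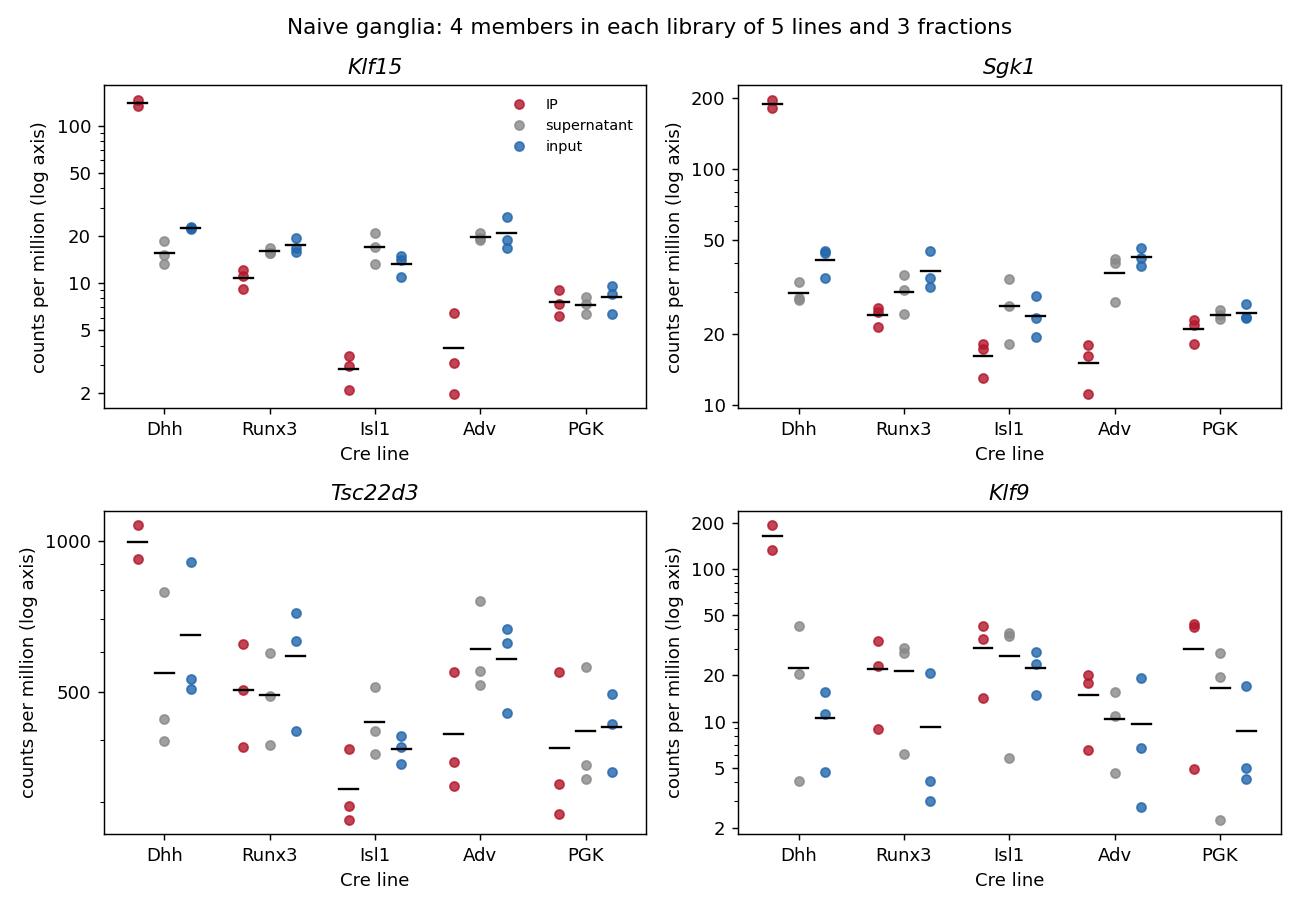
Levels of Klf15, Sgk1, Tsc22d3 and Klf9 in naive ganglia, in CPM on a log axis, for each Cre line with its IP, supernatant and input libraries (points) and their means (bars). The Dhh IP points of Klf15, at 133 and 146 CPM, and of Sgk1, at 182 and 197 CPM, lie above every other library, while Klf9 spreads widely within most groups.

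The other lines gave the same direction. All 4 members were higher in the Dhh IP against the Adv IP (84.4% of genes differed, 42.3% higher and 42.1% lower), against the Runx3 IP (85.4%, 42.7% and 42.6%) and against the PGK IP (82.1%, 41.2% and 40.9%). The largest of these log2 changes was 5.21 ± 0.41 for Klf15 against Adv, and the smallest was 0.83 ± 0.35 for Tsc22d3 against Runx3 (edgeR adjusted p = 0.0427), a call that was lost without Runx3 IP replicate 1 (0.64, edgeR adjusted p = 0.139). Against the Isl1 IP, the Runx3 IP held more Klf15 (2.12 ± 0.36), Sgk1 (0.77 ± 0.17) and Tsc22d3 (0.87 ± 0.32), so that 3 of 4 members were higher, beside 55.7% of genes that differed and 30% that were higher. The Runx3 IP also held more of the markers of some other cells. The 9 neutrophil and mast cell markers summed to 93.4 to 309 CPM in the Runx3 IP, against 5.73 to 11.4 CPM in the Isl1 IP, 9 of 10 macrophage markers to 46.6 to 79.4 CPM, against 8.56 to 25.3 CPM, and the 12 satellite glia markers to 2364 to 2883 CPM, against 1452 to 1987 CPM. The 12 Schwann cell markers were lower, at 271 to 313 CPM in the Runx3 IP, against 890 to 1055 CPM in the Isl1 IP, and the part of any of these in the members' changes was not tested. Tsc22d3 fell out of that call without Isl1 IP replicate 2 (0.75), Isl1 IP replicate 3 (0.78) or Runx3 IP replicate 2 (0.56). Between the Isl1 and Adv pull-downs, which cover the same neurons in different strains, edgeR called 0 of 4 members and 0% of genes, with 0 members at an unadjusted p under 0.05 and 0 by DESeq2. The median log2 change of the members there was -0.18.

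The receptor and its partners were examined with the same test. Nr3c1 averaged 136 ± 23.4 CPM in the Dhh IP (n = 2) and 20.2 ± 3.41 CPM in the Isl1 IP (SD, n = 3), a log2 change of 2.81 ± 0.14 (edgeR adjusted p = 5.57e-09). Nr3c2, the mineralocorticoid receptor, averaged 8.91 CPM in the Dhh IP and 5.88 CPM in the Isl1 IP and was not tested. Of 10 chaperones of the receptor, 9 were lower in the Dhh IP and 0 higher, with a median of -1.12, beside 43.5% of genes that were lower. Hsp90aa1, an HSP90 itself, changed by -2.72, Stip1, which hands clients from HSP70 to HSP90, by -1.49, and Fkbp4, the paralog of Fkbp5 that works against it on the receptor, by -1.35. Among 7 coregulators tested, 3 were higher and 2 lower, with the acetyltransferase gene Ep300 at 2.07.

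Between the Dhh and Isl1 IP 41.3% of all genes were higher in the Dhh IP and 43.5% lower. The gene lists, here and below, were chosen with earlier results of these data known, so their counts give the members no independent support. Of 22 other glucocorticoid-induced genes tested, 20 were higher in the Dhh IP, 1 was lower and 1 was not called, with a median log2 change of 3.35. Those with the smallest p were Ddit4, an mTOR inhibitor (3.26 ± 0.15), the clock gene Per1 (3.39 ± 0.15), the cell cycle inhibitor Cdkn1a (3.30 ± 0.20), the glutamine synthetase Glul (3.19 ± 0.20), which is known as a glial enzyme, and the stress protein gene Sesn1 (3.03 ± 0.23). Dusp1, a phosphatase that shuts off MAP kinases, was the one lower (-0.73). Paralogs of the members showed no common direction: 11 of 23 were higher in the Dhh IP and 10 lower, with Tsc22d4 at 4.30, Klf11 at 3.03 and Sgk3 at 2.68, but Fkbp1b at -3.51.

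The input asks how much of a gene a whole ganglion holds, and the IP against its own input how far the pull-down moves it. In the Dhh line all 4 members were higher in the IP, beside 85.1% of genes that differed and 43% that were higher. Sgk1 stood at 182 and 197 CPM in the Dhh IP, against 45.1, 44.2 and 34.4 CPM in the Dhh input (2.30 ± 0.20). Klf15 changed by 2.73 ± 0.31 and Klf9 by 4.07 ± 0.89. With a block for the replicate number, which pairs fractions of a shared lysate, Tsc22d3 changed by 1.07 (edgeR adjusted p = 0.000714). In the fit without the block Tsc22d3, at 0.70 ± 0.35, had an adjusted p of 0.0675 in edgeR. Its libraries came close, with 910 CPM in Dhh input replicate 2 and 921 CPM in the lower Dhh IP library. Without Dhh IP replicate 1 (0.63), Dhh input replicate 1 (0.52) or Dhh input replicate 3 (0.57) it was not called.

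In the Isl1 and Adv lines the IP held less Klf15 and Sgk1 than its input did. Klf15 stood at 2.10, 2.96 and 3.46 CPM in the Isl1 IP, against 11.0, 14.9 and 14.0 CPM in the Isl1 input. All IP libraries were lower, by -2.18 ± 0.30 (edgeR adjusted p = 4.47e-06). Sgk1 stood at 13.0, 17.2 and 18.2 CPM in the Isl1 IP, against 19.4, 29.0 and 23.4 CPM in the Isl1 input. It was lower by -0.52 ± 0.18 (edgeR adjusted p = 0.0326), a call lost without Isl1 IP replicate 1 (-0.41) or Isl1 input replicate 2 (-0.35). With the block, and all libraries, it was lower by -0.52 (edgeR adjusted p = 0.0245). These 2 of 4 members stand beside 32% of genes that differed and 19.3% that were lower. In the Adv line the same 2 of 4 were lower, Klf15 by -2.34 ± 0.30 and Sgk1 by -1.41 ± 0.18, beside 47.4% of genes that differed and 25.4% that were lower. With a block for the replicate number Tsc22d3 was called lower too (-0.44, edgeR adjusted p = 0.0638), and also without Adv IP replicate 2 (-0.74).

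In the Runx3 line 1 of 4 members was lower in the IP, Sgk1 by -0.43 ± 0.18 (edgeR adjusted p = 0.0366), beside 73.4% of genes that differed (35.7% higher and 37.7% lower). That call was lost without Runx3 input replicate 2 (-0.28). With the replicate block Klf15 was called lower too (-0.48, edgeR adjusted p = 0.0227) and Klf9 higher (1.75, edgeR adjusted p = 0.0129). Single libraries moved these calls as well, since Klf9 was called without Runx3 IP replicate 2 (1.73) or Runx3 input replicate 1 (2.79), and Klf15 without Runx3 IP replicate 3 (-0.62). In the PGK line, where nearly every cell carries the tag, 0 of 4 members were called by edgeR (19% of genes were, 8.91% higher and 10.1% lower), with 1 at an unadjusted p under 0.05 and 0 by DESeq2, and with the block Klf9 was called higher (1.51, edgeR adjusted p = 0.0678). Without PGK IP replicate 2 (2.16) or PGK input replicate 1 (2.58) Klf9 was called as well.

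Averaged over the 5 lines, the members' log2 changes in the supernatant against the input lay between -0.25 and 0.65, an average over lines that differed. Sgk1 was lower by -0.25 ± 0.09 (edgeR adjusted p = 0.0611) as 1 of 4 members, beside 20.7% of genes that differed and 10.1% that were lower. With the replicate block, which pairs fractions of a shared lysate, Sgk1 was lower by -0.26 (edgeR adjusted p = 0.00397). Klf15 (-0.18, edgeR adjusted p = 0.0103) and Tsc22d3 (-0.15, edgeR adjusted p = 0.0919) were then also lower, beside 43.9% of genes that differed. In the fit that ignores this pairing, Sgk1 had an adjusted p of at least 0.10 in edgeR without any 1 of 7 libraries. These were replicate 3 of the Adv, PGK or Runx3 supernatant or replicate 2 of the Dhh, Isl1, PGK or Runx3 input, with changes between -0.24 and -0.22. Klf15 was called lower without Dhh or Isl1 supernatant replicate 2 or without PGK or Runx3 input replicate 1 (-0.22 to -0.20). In the Dhh line Sgk1 stood at 27.8, 33.3 and 28.6 CPM in the supernatant, against 45.1, 44.2 and 34.4 CPM in the input, so that these libraries did not overlap. Klf15 in that line stood at 15.1, 18.4 and 13.2 CPM, against 22.8, 22.1 and 22.3 CPM, also without overlap. In the Isl1 line the supernatant means were the higher ones, at 26.2 against 23.9 CPM for Sgk1 and 17.0 against 13.3 CPM for Klf15, and the libraries overlapped. Both means were lower in the supernatant in the Adv, PGK and Runx3 lines.

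The inputs of the lines were compared to see how alike the ganglia were before the pull-down. Klf15 stood at 22.8, 22.1 and 22.3 CPM in the Dhh input, against 11.0, 14.9 and 14.0 CPM in the Isl1 input, and Sgk1 at 45.1, 44.2 and 34.4 CPM against 19.4, 29.0 and 23.4 CPM. The libraries of both genes did not overlap. Their log2 changes were 0.78 ± 0.19 for Klf15 and 0.81 ± 0.17 for Sgk1, yet edgeR called 0 of 4 members and 0% of genes, with 3 members at an unadjusted p under 0.05 and 2 (Klf15 and Sgk1) called by DESeq2. Without Dhh input replicate 3 edgeR called Sgk1 (0.92, edgeR adjusted p = 0.0938). Between the C57BL/6 and ICR lines edgeR called 0 of 4 members in the input, with 1 (Klf15) at an unadjusted p under 0.05 and 0 by DESeq2, beside 0.0275% of genes. The change of Klf15 there was -0.41 ± 0.12. No Cre line was in both strains, so strain and line cannot be told apart in this comparison.

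Klf9 varied widely within the groups of the naive tables outside the Dhh IP. In the input it stood at 20.7, 4.05 and 3.04 CPM in the Runx3 libraries, at 19.2, 6.71 and 2.78 CPM in the Adv libraries and at 14.9, 23.6 and 28.4 CPM in the Isl1 libraries. Replicate 2 was the lowest of its group in the Adv, Runx3 and PGK IP, in the Dhh and PGK input and in the Adv, Dhh, PGK and Runx3 supernatant. Tsc22d3 was highest in the same replicate 2 of each of those 9 groups, for example at 622 CPM in Runx3 IP replicate 2 against 387 and 503 CPM in the other two. The pairing was not tied to replicate 2. It also held in replicate 3 of the Adv and Runx3 input and in replicate 1 of the Isl1 IP, Isl1 supernatant and Dhh IP. In the Isl1 input Klf9 was lowest in replicate 1 and Tsc22d3 highest in replicate 2.

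After sciatic nerve injury the largest called changes of members against naive ganglia were in the glial pull-down at 12 h. There Fkbp5, Sgk1 and Klf9 were higher than in naive ganglia, so that 3 of 5 members were called, beside 32.9% of genes that differed and 17.7% that were higher. The median log2 change was 1.59 over the members and -0.01 over all genes. At 4 h edgeR called 0 of 5 members (2 at an unadjusted p under 0.05, 0 by DESeq2), beside 1.18% of genes. The median log2 change of the members at 4 h was -0.88, and 4 of 5 fitted changes were below 0, but the 4 h libraries overlapped the naive ones for all 5 genes.

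Fkbp5, a co-chaperone that lowers the receptor's affinity for hormone and so feeds back on it, had the widest range. In the Dhh IP it stood at 22.4, 27.9 and 4.00 CPM in naive ganglia, 3.65, 4.85 and 5.21 CPM at 4 h, 105, 102 and 40.6 CPM at 12 h, and 105 and 36.4 CPM at 24 h. All 12 and 24 h libraries were above all naive ones, and all 4 h libraries were below the first and second naive libraries but not all below replicate 3. Against naive ganglia the log2 change was -1.95 ± 0.54 at 4 h (edgeR adjusted p = 0.140), 2.36 ± 0.54 at 12 h (edgeR adjusted p = 0.00476) and 1.95 ± 0.57 at 24 h (edgeR adjusted p = 0.115). Without replicate 3 of the naive and 24 h groups, a choice made after the values were seen, the 4 h change was -2.43 (edgeR adjusted p = 0.00179), the 12 h change 1.87 and the 24 h change 2.06 (edgeR adjusted p = 0.0400).

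For Tsc22d3 no change against naive ganglia passed the test. In the Dhh IP it stood at 232, 197 and 67.7 CPM in naive ganglia, 82.3, 103 and 77.9 CPM at 4 h, 312, 318 and 128 CPM at 12 h, and 308 and 84.8 CPM at 24 h. Replicate 3 of the naive, 12 h and 24 h groups was each far below the rest of their group. The changes against naive were -0.88 ± 0.44 at 4 h, 0.78 ± 0.44 at 12 h and 0.23 ± 0.48 at 24 h. Without replicate 3 of the naive and 24 h groups the 4 h change was -1.26 (edgeR adjusted p = 0.0527) and the 12 h change 0.40 (edgeR adjusted p = 0.341), and without Dhh IP 12 h replicate 3 the 12 h change was 1.08 (edgeR adjusted p = 0.0676).

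Sgk1 differed from those genes in that it was not low at 4 h. It stood at 88.9, 97.5 and 21.7 CPM in naive Dhh IP libraries, 75.2, 124 and 88.0 CPM at 4 h, 189, 264 and 331 CPM at 12 h, and 120 and 42.0 CPM at 24 h. Only the 12 h libraries were clear of all naive libraries, with a change of 2.12 ± 0.46 (edgeR adjusted p = 0.00337), against 0.49 ± 0.44 at 4 h and 0.21 ± 0.49 at 24 h. Without replicate 3 of the naive and 24 h groups the 12 h change of Sgk1 was 1.68 and was still called.

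Klf9 stood at 246, 222 and 85.2 CPM in naive Dhh IP libraries, 125, 146 and 111 CPM at 4 h, 442, 419 and 583 CPM at 12 h, and 349 and 181 CPM at 24 h. Its 12 h libraries were above all others, and the change was 1.59 ± 0.32 (edgeR adjusted p = 0.00192). The 4 h libraries were below the first and second naive ones, with a change of -0.50 ± 0.31 over all libraries and -0.85 (edgeR adjusted p = 0.0527, with 1.24 at 12 h) without replicate 3 of the naive and 24 h groups. Klf15 stood at 47.5, 49.2 and 14.8 CPM in naive ganglia, 17.9, 20.1 and 14.4 CPM at 4 h, 50.3, 45.5 and 45.3 CPM at 12 h, and 52.1 and 26.7 CPM at 24 h. Its changes were -1.06 ± 0.34 at 4 h (edgeR adjusted p = 0.220), 0.53 ± 0.34 at 12 h and 0.07 ± 0.38 at 24 h, and without replicate 3 of the naive and 24 h groups the 4 h change was -1.44 (edgeR adjusted p = 0.00161) and the 12 h change 0.14.

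**Figure D2:**
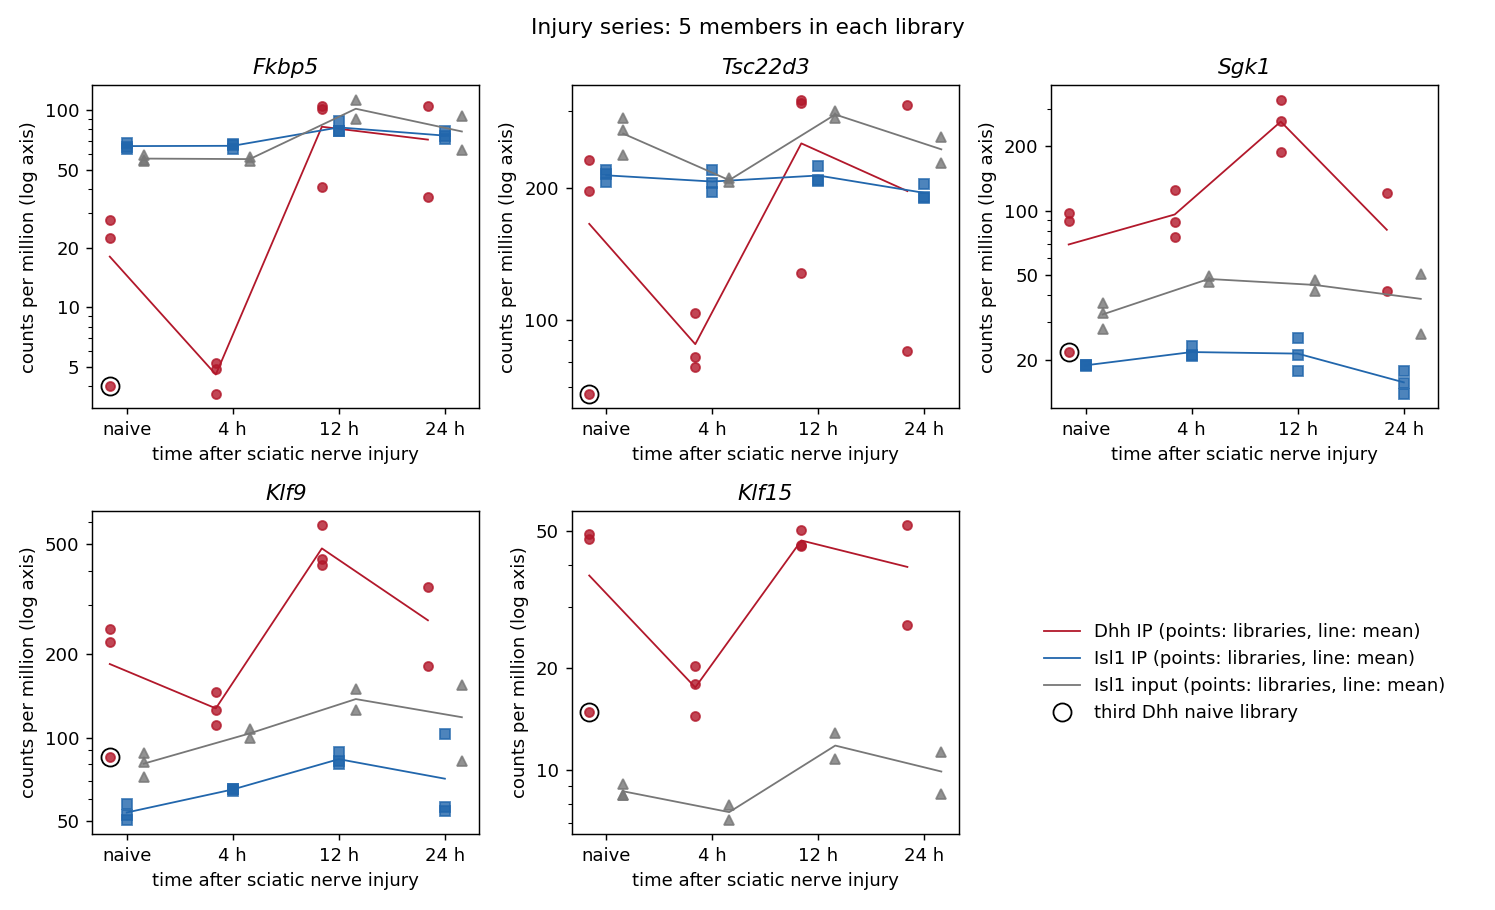
Levels of Fkbp5, Tsc22d3, Sgk1, Klf9 and Klf15 in CPM on a log axis, in naive ganglia and 4, 12 and 24 h after injury, for the Dhh IP, the Isl1 IP and the Isl1 input (points are libraries, lines join the means). The circled replicate 3 of the naive Dhh group is the lowest naive Dhh IP point of all 5 genes, and the Isl1 IP points of Fkbp5 stay between 63.5 and 88.2 CPM.

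Without replicate 3 of the naive and 24 h groups 4 of 5 members were called lower at 4 h, all but Sgk1, beside 1.16% of genes. With only naive replicate 3 left out 2 of 5 were called, Fkbp5 and Klf15, beside 1.14% of genes. Over all libraries 0 of 5 were called at 4 h. Dhh IP 12 h replicate 3, the lowest of its group in Fkbp5 and Tsc22d3 but the highest in Sgk1 and Klf9, was kept. Both choices left out libraries that stood low in these same members, so neither count can be weighed against its share of genes. At 12 h the count stayed at 3 of 5 in both cases. At 24 h edgeR called 0 of 5 members over all libraries (1, Fkbp5, at an unadjusted p under 0.05 and 0 by DESeq2), beside 2.7% of genes, and Fkbp5 was called without Dhh IP 24 h replicate 3 (2.54) or without naive replicate 2 (2.44). Directly between 24 h and 4 h, 3 of 5 members were higher at 24 h, beside 9.64% of genes that differed: Fkbp5 by 3.91 ± 0.60 (edgeR adjusted p = 0.00177), Klf15 by 1.12 ± 0.37 and Klf9 by 1.01 ± 0.34. The calls for Klf15 and Klf9 were lost without any single 4 h library, at changes of 0.92 to 1.24, and without 24 h replicate 1, at 0.58 for Klf15 and 0.48 for Klf9. With replicate 3 of the naive and 24 h groups left out, 4 of 5 members were called, beside 4.29% of genes, with Fkbp5 at 4.49, Tsc22d3 at 1.78, Klf15 at 1.54 and Klf9 at 1.42, whereas Tsc22d3 over all libraries (1.12 ± 0.48) was not called.

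What moved with the members was read from the same libraries. Nr3c1 averaged 220 ± 34.5 CPM in naive Dhh IP libraries, 232 ± 5.52 at 4 h, 195 ± 12.9 at 12 h (SD, n = 3 each) and 182 ± 11.7 at 24 h (n = 2), with no called change. The clock gene Per1, which is also a receptor target, stood at 60.6 to 146 CPM in naive Dhh IP libraries, 34.2 to 54.4 CPM at 4 h, 201 to 550 CPM at 12 h and 74.4 to 125 CPM at 24 h, and was higher at 12 h by 1.82 ± 0.38. Dbp, a clock output gene with peak expression at 1 phase of the day, fell by 2.50 ± 0.41 on the log2 scale at 12 h, to 1.65 to 4.32 CPM, against 9.90 to 30.5 CPM in naive libraries. The part of the hour of collection in the members' changes was not tested. Sums of glial and neuronal markers overlapped between naive and 4 h libraries for Schwann cells (28642 to 35915 CPM at 4 h, 27187 to 31529 CPM naive) and neurons (1366 to 1632 CPM at 4 h, 1350 to 1612 CPM naive). The 12 satellite glia markers summed to 15321 to 18217 CPM in naive libraries, 19060 to 20831 CPM at 4 h, 12949 to 14207 CPM at 12 h and 14102 to 14904 CPM at 24 h, and their part in the members' changes was not tested. For macrophages 1 of 10 markers was listed in this table, summing to 2.12 to 5.03 CPM at 12 h, against 0.118 to 0.352 CPM in naive libraries.

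Of 24 other glucocorticoid-induced genes tested in the Dhh IP, 19 were higher at 12 h and 0 lower, beside 17.7% of all genes that were higher, with a median log2 change of 1.41. Cdkn1a (2.35 ± 0.22), the metallothionein genes Mt2 (3.61 ± 0.37) and Mt1 (2.19 ± 0.31), Dusp1 (3.97 ± 0.43) and the C/EBP factor Cebpd (3.34 ± 0.37) had the smallest p. At 4 h 1 of the 24 was higher, Dusp1 by 4.32 ± 0.44, and 2 lower, the hypoxia factor Hif3a by -2.45 ± 0.43 and the clock gene Per2 by -2.04 ± 0.37, with a median of -0.36. Of all genes 0.555% were higher at 4 h and 0.627% lower. At 24 h 2 of 24 were higher, the lipid droplet gene Plin4 (5.78 ± 0.89) and Mt2 (1.72 ± 0.37), beside 1.26% of all genes. Among paralogs 9 of 26 were higher at 12 h and 2 lower, with the zinc finger factors Klf6 at 2.70 and Klf13 at 1.41 and Tsc22d2 at 2.49. Of the receptor's chaperones 1 of 10 was lower at 12 h, the ubiquitin ligase Stub1 (-0.78), and of the coregulators 5 of 10 were higher. Of all genes 15.2% were lower and 17.7% higher at 12 h.

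In the Isl1 IP the libraries of a group lay closer together and the log2 changes against naive ganglia stayed between -0.24 and 0.66. At 12 h 2 of 4 members were higher in the Isl1 IP, beside 5.14% of genes that differed (2.32% higher and 2.82% lower), with a median log2 change of 0.27 over the members and 0.00 over all genes. At 4 h edgeR called 0 of 4 (0 at an unadjusted p under 0.05, 0 by DESeq2), beside 3.13% of genes, and at 24 h 1 of 4, beside 18.6%.

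Fkbp5 stood at 68.2, 65.3 and 63.7 CPM in naive Isl1 IP libraries, 66.7, 67.6 and 63.5 CPM at 4 h, 78.6, 78.5 and 88.2 CPM at 12 h, and 78.1, 73.6 and 71.1 CPM at 24 h. All 12 and 24 h libraries were above all naive ones. The change was 0.01 ± 0.06 at 4 h, 0.33 ± 0.06 at 12 h (edgeR adjusted p = 0.0184) and 0.20 ± 0.06 at 24 h (edgeR adjusted p = 0.0514), the last lost without naive replicate 2 (0.20), naive replicate 3 (0.18) or 24 h replicate 1 (0.18). Between 24 and 4 h Fkbp5 was higher by 0.19 ± 0.06, a call lost without 4 h replicate 3 (0.16) or 24 h replicate 1 (0.16).

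Klf9 stood at 52.7, 57.7 and 50.6 CPM in naive Isl1 IP libraries, 65.3, 65.5 and 64.2 CPM at 4 h, 82.2, 80.1 and 88.6 CPM at 12 h, and 54.2, 103 and 56.2 CPM at 24 h. The 4 h and 12 h libraries did not overlap the naive ones, while replicate 2 at 24 h lay far above its group. The change was 0.66 ± 0.19 at 12 h (edgeR adjusted p = 0.0820), but without any 1 of the 6 naive and 12 h libraries it missed the threshold at 0.62 to 0.71. At 24 h it was 0.44 ± 0.19 (edgeR adjusted p = 0.152). Without 24 h replicate 1 (0.61) or replicate 3 (0.59) it was called, but without replicate 2, the high library, the change was 0.05 (edgeR adjusted p = 0.663). Between 24 and 4 h the change of Klf9 was 0.15 ± 0.19 over all libraries, and without 24 h replicate 2 it was called in the other direction (-0.23, edgeR adjusted p = 0.0175).

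Sgk1 stood at 19.0, 18.9 and 18.6 CPM in naive Isl1 IP libraries, 23.2, 20.8 and 21.1 CPM at 4 h, 21.0, 17.8 and 25.3 CPM at 12 h, and 13.8, 17.6 and 15.5 CPM at 24 h. All its 24 h libraries were below all naive ones, with a change of -0.24 ± 0.12 (edgeR adjusted p = 0.218), and against 4 h it was lower by -0.45 ± 0.12 (edgeR adjusted p = 0.0171). Without 24 h replicate 2 the change against naive was called (-0.35, edgeR adjusted p = 0.0546). Tsc22d3 lay between 189 and 225 CPM in all 12 Isl1 IP libraries of the series, with changes against naive between -0.11 ± 0.06 and 0.02 ± 0.06, none of them called. Between 24 h and 4 h, 1 of 4 members was thus higher and 1 lower in the Isl1 IP, beside 27.2% of genes that differed.

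Among 17 other glucocorticoid-induced genes tested in the Isl1 IP, 9 were higher at 12 h and 11 at 24 h, and 0 lower at either time. Of all genes 2.32% were higher at 12 h and 11.1% at 24 h. The medians of the 17 were 0.54 and 0.40. Cebpd (2.05 ± 0.25), Mt1 (2.61 ± 0.32), Mt2 (2.99 ± 0.39), Cdkn1a (0.82 ± 0.11) and Per1 (1.10 ± 0.18) had the smallest p at 12 h. Nr3c1 changed by 0.06 ± 0.15 at 12 h and -0.26 ± 0.15 at 24 h and Nr3c2 by -0.11 ± 0.10 and -0.21 ± 0.10, none of them called. The Schwann cell markers of this table, 9 of 12, summed to 857 to 1331 CPM at 12 h, against 852 to 883 CPM in naive libraries. The satellite glia markers, 7 of 12, summed to 1234 to 1741 CPM at 12 h, against 1161 to 1189 CPM in naive libraries and without overlap, and the fibroblast markers, 3 of 8, to 36.3 to 143 CPM, against 35.9 to 56.0 CPM. The part of these cells in the 12 h values was not tested. Dbp stayed between 3.01 and 4.83 CPM in the Isl1 IP and was not called at any time.

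The Isl1 input is a lysate of the whole lumbar ganglion, and 2 of its 5 members were higher at 12 h, beside 4.48% of genes that differed and 2.22% that were higher. Fkbp5 stood at 59.1, 56.1 and 55.2 CPM in naive input libraries, 58.0 and 55.0 CPM at 4 h, 90.3 and 113 CPM at 12 h, and 92.9 and 63.0 CPM at 24 h. Its 12 and 24 h libraries were above all naive ones, with changes of 0.89 ± 0.15 at 12 h (edgeR adjusted p = 0.0215) and 0.50 ± 0.15 at 24 h (edgeR adjusted p = 0.0893). Klf9 was higher at 12 h by 0.83 ± 0.20 (edgeR adjusted p = 0.0723), with 126 and 149 CPM at 12 h, against 72.2, 87.9 and 81.5 CPM in naive libraries. The 12 h call for Fkbp5 was lost without 12 h replicate 3 (0.71) or naive replicate 1 (0.91), and that for Klf9 without any 1 of the 5 libraries (0.69 to 0.95).

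At 24 h the members of the input were split by library. Klf9 stood at 154 CPM in replicate 2 and 82.7 CPM in replicate 3, and Sgk1 at 50.7 CPM in replicate 2 and 26.4 CPM in replicate 3, against 27.9, 36.9 and 32.9 CPM for Sgk1 in naive libraries. Thus 1 of 5 members, Fkbp5, was called at 24 h, beside 8.42% of genes. Leaving out either replicate leaves 1 library at 24 h, so only effect sizes are given. Without replicate 3 at 24 h the log2 changes against naive were 1.01 for Klf9, 0.71 for Sgk1 and 0.45 for Klf15. Without replicate 2 at 24 h the change of Fkbp5 was 0.14. Without any 1 of the 3 naive libraries Fkbp5 was not called (0.48 to 0.52). At 4 h edgeR called 0 of 5 (2 at an unadjusted p under 0.05, and Tsc22d3 by DESeq2), beside 1.28% of genes. Sgk1 (46.2 and 49.4 CPM, against 27.9 to 36.9 CPM) and Klf9 (100 and 107 CPM, against 72.2 to 87.9 CPM) were above all naive libraries at 4 h. Tsc22d3 (206 and 211 CPM, against 238 to 289 CPM) and Klf15 (7.19 and 7.92 CPM, against 8.45 to 9.12 CPM) were below them. The share of all genes without overlap was not counted. Between 24 h and 4 h edgeR called 0 of 5 in the input (2 at an unadjusted p under 0.05, 1 by DESeq2), beside 11% of genes. Without 24 h replicate 3, which leaves 1 library, the changes were 0.74 for Fkbp5, 0.59 for Klf9, 0.60 for Klf15 and 0.35 for Tsc22d3. Without 24 h replicate 2 the change of Sgk1 was -0.90.

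The 12 Schwann cell markers of the input summed to 2936 and 3543 CPM at 12 h, against 4013 to 4567 CPM in naive libraries, and the 12 satellite glia markers to 4000 and 4155 CPM, against 4193 to 4648 CPM. Both sums were below all naive libraries at 12 h, while the 18 neuronal markers overlapped (25388 and 28863 CPM at 12 h, 26761 to 29088 CPM naive), and their part in the members' changes was not tested. In the input Dbp was lower at 12 h by -2.37 ± 0.28, with 2.47 and 3.23 CPM at 12 h, against 15.0 to 15.7 CPM in naive libraries. Of 24 other glucocorticoid-induced genes in the input, 9 were higher at 12 h and 2 lower, beside 2.22% and 2.26% of all genes. Their median was 0.42. The lower ones were Per2 (-0.81) and the lipid transporter Mfsd2a (-0.78).

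Whether glia and neurons answered differently was tested as an interaction over the 4 members that both pull-down tables list. At 12 h 2 of 4 differed, beside 25.7% of genes that differed and 12.4% with the larger change in the Dhh IP: Fkbp5 by 1.99 ± 0.59 (edgeR adjusted p = 0.0235) and Sgk1 by 1.89 ± 0.54 (edgeR adjusted p = 0.0180). Klf9 (0.90 ± 0.41, edgeR adjusted p = 0.138) and Tsc22d3 (0.73 ± 0.51, edgeR adjusted p = 0.338) were not called, and without Dhh naive replicate 1 Klf9 was (1.15). Without replicate 3 of the Dhh naive and 24 h groups the difference was 1.52 for Fkbp5 and 1.47 for Sgk1, both still called. The median of the 4 was 1.39 and that of all genes -0.05. At 4 h edgeR called 0 of 4 (1, Fkbp5, at an unadjusted p under 0.05, 0 by DESeq2), beside 0.906% of genes. Without replicate 3 of the Dhh naive and 24 h groups 3 of 4 were called at 4 h, beside 2.18% of genes: Fkbp5 at -2.44, Tsc22d3 at -1.21 and Klf9 at -1.13. With naive replicate 3 alone left out, Fkbp5 was called (-2.43). These libraries were left out as low in the members, so the 4 h calls without them cannot be weighed against shares of all genes. At 24 h edgeR called 0 of 4 (1, Fkbp5, at an unadjusted p under 0.05, 0 by DESeq2), beside 2.87% of genes, and without Dhh 24 h replicate 3 (2.34) or Dhh naive replicate 2 (2.24) Fkbp5 was called.

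**Figure D3:**
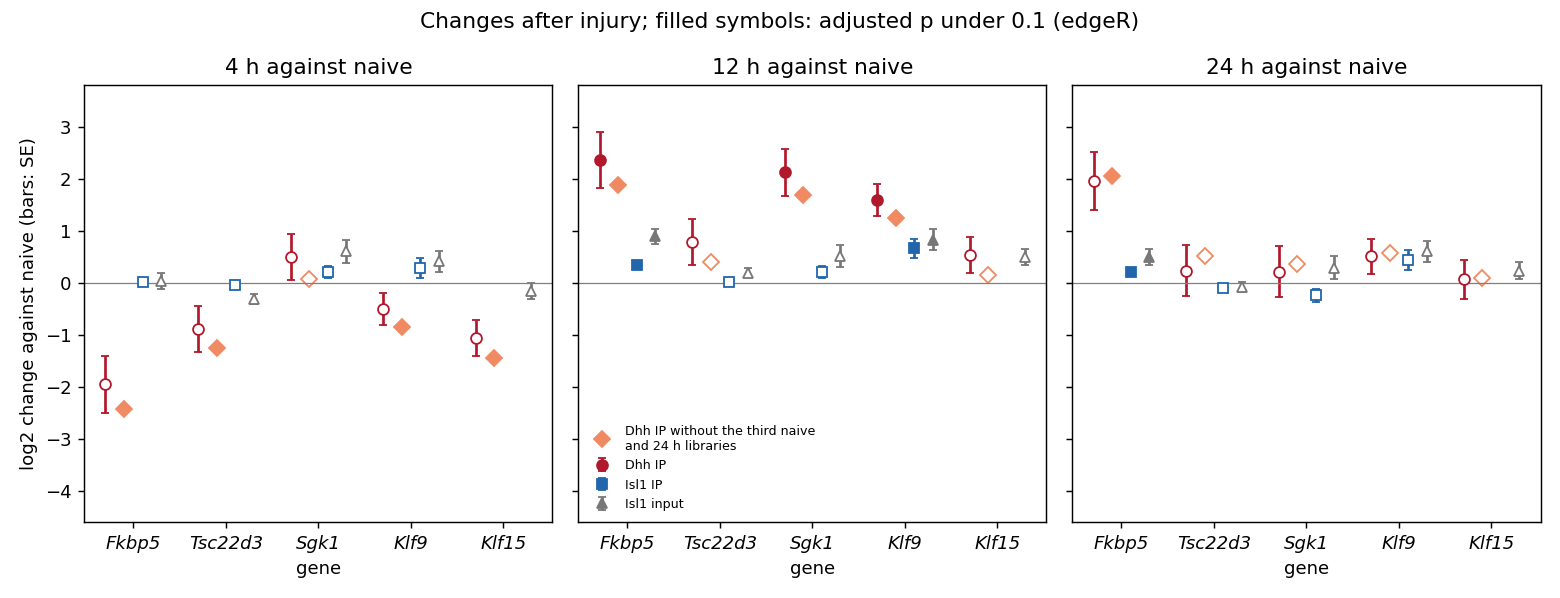
Log2 changes against naive ganglia at 4, 12 and 24 h for each member, with SE, in the Dhh IP, the Isl1 IP and the Isl1 input, and in the Dhh IP without replicate 3 of the naive and 24 h groups (diamonds, no SE drawn). Filled symbols passed an adjusted p under 0.1 in edgeR, and at 12 h these include Fkbp5, Sgk1 and Klf9 of the Dhh IP at 2.36, 2.12 and 1.59.

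Between the Isl1 IP and its input, edgeR called 0 of 4 differences in response at each time, with 1 member at an unadjusted p under 0.05 at 4 h (Tsc22d3, 0.28 ± 0.11), 1 at 12 h (Fkbp5, -0.54 ± 0.16) and 0 at 24 h, and 0 by DESeq2. The background there was 0.0265% of genes at 4 h, 0.0177% at 12 h and 0% at 24 h, so that this comparison called almost nothing.

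The patterns of the members were compared over the means of 13 pull-down groups, with a Pearson r of log2(CPM + 0.5) given as a description, since groups of a line share tables and cell type. Among 7694 genes, the most alike to Sgk1 were Nfkb1 (r = 0.968), Retsat (0.967) and Zfp746 (0.965), to Tsc22d3 Zfp740 (0.971), Jdp2 (0.952) and Taf8 (0.938), and to Klf9 Zfyve20 (0.973), Tbc1d15 (0.969) and 1810055G02Rik (0.965). Sgk1 and Klf9 had an r of 0.846 with each other, whereas Tsc22d3 had 0.017 with Sgk1 and -0.318 with Klf9. The 13 groups mix the naive lines and the injury series, whose naive levels differ. Tsc22d3 averaged 999 and then 165 CPM in the naive Dhh IP, and 319 and 213 CPM in the naive Isl1 IP. Klf9 averaged 162 and 184 CPM, and 30.3 and 53.7 CPM. The part of this difference in the r values was not tested. Over the 8 groups of the injury series alone, Fkbp5 could be included, and among 8757 genes it was the nearest of all to Tsc22d3 (r = 0.953), while the genes nearest to Fkbp5 were Cab39l (0.968), Htra1 (0.963) and Nfx1 (0.963). Sgk1 and Klf9 had an r of 0.936 there, and Sgk1 and Fkbp5 -0.321. By their group means, Sgk1 and Klf9 were higher in the Dhh IP than in the Isl1 IP at every time, while Fkbp5 was lower in the Dhh IP in naive ganglia and at 4 and 24 h and Tsc22d3 in naive ganglia and at 4 h. Fkbp5 averaged 18.1 ± 12.5 CPM in the naive Dhh IP of the series and 65.7 ± 2.27 CPM in the naive Isl1 IP (SD, n = 3 each), in tables scaled separately. Klf15 could not be placed, as it was not analysed in 1 of the 3 pull-down tables.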

How the data were processed

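RNA was sequenced from IP, supernatant and input fractions of 5 RiboTag lines, 77 samples in 27 groups, of which 76 libraries had a count column used here. The tables hold raw counts per gene, which the authors deposited after alignment with STAR to mm10 and counting with HTSeq, per the study's methods, with libraries demultiplexed by CASAVA 1.8.2 and mm9 also named in the submitters' processing notes. No source used here states a strand setting for the counting. All columns matched a sample (0 left out). Symbols turned into dates by a spreadsheet were restored, except 1 row dropped in each injury table.

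CPM used library totals (29710143 to 54088821 counts), and FPKM used summed exon lengths of GENCODE M21 (mm10). Counts were tested per table with edgeR 4.0.16 in R 4.3.3 (quasi-likelihood, TMM scaling, all groups of the table in the fit). For IP or supernatant against input and for an interaction, 2 tables were joined over the genes that both list. Genes tested had a mean FPKM above 1 over all libraries of the fit. Benjamini-Hochberg adjustment was over all genes tested, with a threshold of 0.1, as in the study's methods. DESeq2 1.42.0, other scalings, no filter, only the groups compared, a replicate block and each library left out were tried. The test was checked on simulated data. No 2 replicates were 1 library deposited again: over 71 pairs, chi-square per gene was 5.50 to 294.

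By the methods, 10% of each lysate was set aside as input, so that same-numbered fractions of a line share a lysate. Their deviations from group means correlated above 0.1 in 10 of 14 pairs of naive IP and input (median r = 0.483), 13 of 15 of supernatant and input (0.722) and 9 of 9 of Isl1 IP and input in the injury series (0.461).

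The members and gene lists were chosen with earlier results of these data known. Named genes were the members, the genes most like them, Nr3c1 and Nr3c2, Per1 and Dbp beside the time courses and, per other list and comparison, up to 5 called genes with the smallest p. Dusp1 in naive glia and Per2 and Mfsd2a in the input were named after their values were seen.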

Additional observations from a re-analysis of the deposited data

Results flagged for a closer look

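The injury response at 12 h differed between the Dhh IP and the Isl1 IP, by the interaction test in edgeR, for Fkbp5 (a difference of log2 changes of 1.99) and Sgk1 (1.89). The change of the IP against its input had opposite signs in the Dhh line and in other lines, with every IP library above every input library in the Dhh line and below it in the other line. These differences of log2 changes were not tested, and the share of all genes split in this way was not counted. Of all genes 43% were called higher in the Dhh IP than in its input. Called lower in the IP were 25.4% in the Adv, 19.3% in the Isl1, 10.1% in the PGK and 37.7% in the Runx3 line. The change itself was not called for Sgk1 in the PGK line (-0.30, edgeR adjusted p = 0.274) and for Klf15 in the Runx3 line (-0.49, edgeR adjusted p = 0.132). They were 5.07 for Klf15 between the Dhh and Adv lines, 4.91 between Dhh and Isl1, and 3.22 between Dhh and Runx3. For Sgk1 they were 3.70 between Dhh and Adv, 2.82 between Dhh and Isl1, 2.60 between Dhh and PGK, and 2.72 between Dhh and Runx3.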

How the results depend on the processing

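Of 1861 member values under alternatives, 1726 kept their call, 57 lost it and 77 gained one, with 47 and 32 of these from leaving out a library. Only 1 called value changed sign: Klf9 in the Isl1 IP at 24 h against 4 h was -0.23 without 24 h replicate 2, and between that and 0.32 over all libraries left out. Another 60 uncalled values changed sign and stayed uncalled. Members called ranged, with each library left out, from 3 to 4 for Dhh IP against Runx3 IP, 2 to 3 for Runx3 IP against Isl1 IP, 0 to 1 for Dhh against Isl1 input, and, for IP against input, from 2 to 3 in Adv, 3 to 4 in Dhh, 1 to 2 in Isl1, 0 to 1 in PGK and 0 to 2 in Runx3. They ranged from 0 to 2 for supernatant against input, and in the Isl1 IP were 1 in every case at 12 h, 0 to 2 at 24 h and 1 to 3 for 24 h against 4 h. In the Dhh IP they ranged from 0 to 2 at 4 h, 3 to 4 at 12 h, 0 to 1 at 24 h and 1 to 4 for 24 h against 4 h, and in the Isl1 input from 0 to 1 at 12 h, 0 to 4 at 24 h and 0 to 4 for 24 h against 4 h. For the Dhh minus Isl1 response they were 0 to 1 at 4 h, 2 to 3 at 12 h and 0 to 1 at 24 h. These ranges are given without the share of all genes called in the same refits, so they cannot be weighed against it. Where a group holds 2 libraries, such a refit leaves 1. In the Runx3 line 2 were called under DESeq2, RLE factors, library totals, no filter or only the groups compared, beside 68.9% to 74.1% of genes. DESeq2 called 2 for Dhh against Isl1 input (2.28% of genes), 1 for the Dhh IP at 24 h against 4 h (12.7%), and 1 each for the Isl1 input at 4 h (3.75%) and at 24 h against 4 h (13%). With only the groups compared, counts were 2, 0 and 1 in the Isl1 IP (4 h, 24 h, 24 h against 4 h), beside 12.7%, 11.9% and 16.5% of genes. They were 2 in the Dhh IP at 4 h (5.13%), and 3, 4 and 0 in the Isl1 input (4, 12 and 24 h), beside 5.48%, 12.4% and 6.34%. Leaving out both replicate 3 libraries of the Dhh IP, chosen after seeing the data, gave 4 at 4 h and 1 at 24 h, and 3 and 1 for the Dhh minus Isl1 response.

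With the replicate block, members called are given with the share of all genes called. They were 2 for Dhh against Isl1 input (0.0641%), 1 for PGK (36%) and 3 for Runx3 IP against input (79.1%), and 3 for supernatant against input (43.9%). In the Dhh IP they were 5 at 12 h (32.7%) and 1 at 24 h (2.77%), and in the Isl1 input 0 at 12 h (0.384%) and at 24 h (5.03%). For the Dhh minus Isl1 response they were 4 at 12 h (26.6%) and 1 at 24 h (3.07%). Between lines or times a number is only shared: same-numbered deviations correlated above 0.1 in 3 of 15 pairs in the Dhh IP, 9 of 18 in the Isl1 IP, 3 of 12 in the Isl1 input, 15 of 26 between naive pull-downs and 17 of 30 between naive inputs.

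Library totals instead of TMM shifted the members by -0.20 in Runx3 IP against input, -0.18 in the Dhh IP at 12 h, and by less elsewhere. Counts over all genes also moved by more than 1.5 times. DESeq2 gave 189 in place of 0 for Isl1 against Adv IP, 249 in place of 0 for Dhh against Isl1 input, 24 in place of 3 between strains (0 with RLE factors, no filter or the block), 615 and 1080 in place of 354 and 581 in the Isl1 IP at 4 and 12 h, 359 and 505 in place of 130 and 297 in the Dhh IP at 4 and 24 h, 459 and 958 in place of 157 and 548 in the Isl1 input at 4 and 12 h, and 216 and 490 in place of 90 and 285 for the Dhh minus Isl1 response at 4 and 24 h. The replicate block gave 4551 in place of 2146 for supernatant against input, 3676 in place of 1942 for PGK IP against input, 7 for Dhh against Isl1 input, and 36, 47 and 616 in place of 157, 548 and 1030 in the Isl1 input at 4, 12 and 24 h. Only the groups compared gave 385 for PGK IP against input, 1425, 1852 and 1335 (2098 in all groups) in the Isl1 IP at 4, 12 and 24 h and 1854 in place of 3075 for 24 h against 4 h, 562 and 448 in the Dhh IP at 4 and 24 h and 1816 in place of 1060 for 24 h against 4 h, 668 and 1518 in the Isl1 input at 4 and 12 h and 462 in place of 1341 for 24 h against 4 h, and 321 for the 4 h response difference. No filter gave 5145 in place of 3264 for Isl1 IP against input. Without both replicate 3 libraries the Dhh IP gave 82 at 24 h and 471 for 24 h against 4 h, and the 4 h response difference 217. For the Isl1 IP minus input response, counts of 3, 2 and 0 at 4, 12 and 24 h were 37, 17 and 4 by DESeq2 and 42, 46 and 15 with the block. The cause was not tested.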

Other observations

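The naive Dhh IP was sequenced in both the naive table and the injury series, and the members' levels differed between them, in tables scaled separately. Tsc22d3 averaged 999 CPM in the naive table and 165 CPM in the naive group of the series, Sgk1 189 and 69.3 CPM, Klf15 139 and 37.2 CPM, and Klf9 162 and 184 CPM. The clock gene Per1 averaged 115 CPM in the naive table and 109 CPM in the series, and Dbp 128 and 19.0 CPM. Marker sums of the naive Dhh IP differed as well. The 12 satellite glia markers summed to 53223 and 71987 CPM in the naive table and 15321 to 18217 CPM in the series. The 12 Schwann cell markers summed to 47145 and 48505 CPM and 27187 to 31529 CPM, and the 18 neuronal markers to 1494 and 2219 CPM and 1350 to 1612 CPM. The difference between the tables, and the part of these cells in it, was not tested.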
